A study of Mus musculus with 4 samples.

Results

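Cluster 45 of the mouse hindbrain nuclei is a group of 161 glutamatergic neurons that the study's table of nuclei names after *Prdm16* and *Zfp804b*. Its members are the nuclei that passed the study's quality filter and carry that cluster label. They made up 161 of 39461 nuclei (0.408%) and 161 of 12539 neurons (1.28%), and cluster 45 was the 12th largest of 134 neuronal clusters, which held 15 to 227 nuclei. The nuclei came from a portion of the hindbrain with the area postrema (AP) and the nucleus of the solitary tract (NTS), sorted by flow cytometry and profiled in 4 libraries with the 10x Genomics 3′ chemistry. The 2 AgRP-Gq;POMC-Gi libraries came from mice heterozygous for both recombinases (AgRP-IRES-Cre+/- and POMC-Dre+/-) and for both receptor alleles (hM3DGqfl/- and hM4DGifl/-). In these mice Cre, from the *Agrp* locus, switches on the activating receptor hM3DGq in AgRP neurons, and Dre, under *Pomc* control, switches on the inhibitory receptor hM4DGi in POMC neurons. The 2 control libraries are labelled as wild type, whereas the Methods of the study describe control littermates that carry both receptor alleles but neither recombinase. All mice were 12 to 20 weeks old, of both sexes and on a C57BL/6 background, and all had received the receptor ligand clozapine-N-oxide (CNO) at 3 mg per kg 1 h before death, without food. The design text gives 2 mice per group and says that tissue was pooled within a condition. Whether the 2 libraries of a group came from separate mice is not stated, so p-values measure the spread between these 4 libraries, part of which may be technical. The 2 AgRP-Gq;POMC-Gi libraries were not repeats of 1 pool of nuclei, since *Xist*, a female-specific RNA, had 494 CPM in the first and 7.04 CPM in the second.

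PRDM16 belongs to a family of nuclear proteins with a PR domain and zinc fingers that regulate transcription. It is best known for its part in brown fat formation and in neural stem cells, and its closest relative is MECOM, also called EVI1. Zfp804b is a zinc finger protein related to ZNF804A. Glutamatergic neurons of the caudal brainstem load their vesicles through VGLUT2, the product of *Slc17a6*, and those of the NTS are the first central relay for sensory input of the vagus nerve.

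Promoter sequences are shown for 3 genes that were high in cluster 45, because they belong to the gene that names the cluster, to a retinoic acid receptor and to a neuropeptide, whose levels follow. They are taken from RefSeq (build GRCm38.p6) and run from 250 bases before to 50 bases after the gene start, in the direction of transcription. All 3 genes lie on the minus strand, *Prdm16* at chr4:154636824-154637123, *Rarb* at chr14:16575427-16575726 and *Sst* at chr16:23890795-23891094. The *Rarb* and *Sst* starts lie inside the genes as GENCODE M21 draws them (14:16430839-16819156 and 16:23889573-23890958).
Prdm16: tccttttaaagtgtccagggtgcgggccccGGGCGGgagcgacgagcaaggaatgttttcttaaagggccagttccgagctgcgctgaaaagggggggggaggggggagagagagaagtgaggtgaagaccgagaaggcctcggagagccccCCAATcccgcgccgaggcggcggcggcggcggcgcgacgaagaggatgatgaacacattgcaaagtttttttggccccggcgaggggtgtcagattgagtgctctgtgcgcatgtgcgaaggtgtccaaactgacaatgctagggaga
Rarb: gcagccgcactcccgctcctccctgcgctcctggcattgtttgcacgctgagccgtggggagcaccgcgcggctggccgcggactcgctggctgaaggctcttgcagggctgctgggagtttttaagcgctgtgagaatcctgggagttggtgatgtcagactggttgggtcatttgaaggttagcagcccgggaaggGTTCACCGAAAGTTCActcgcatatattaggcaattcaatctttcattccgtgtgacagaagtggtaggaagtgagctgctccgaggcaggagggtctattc
Sst: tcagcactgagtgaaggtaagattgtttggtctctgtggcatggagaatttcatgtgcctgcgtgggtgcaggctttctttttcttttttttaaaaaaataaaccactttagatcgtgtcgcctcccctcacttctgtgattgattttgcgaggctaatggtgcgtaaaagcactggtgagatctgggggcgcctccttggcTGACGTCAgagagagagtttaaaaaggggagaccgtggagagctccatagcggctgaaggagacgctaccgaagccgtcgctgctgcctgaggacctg
The capitals in the *Prdm16* promoter mark GGGCGG, a GC box that stands in 35.7% of the 32851 promoters of the table, and CCAAT, which stands in 37.4%, both searched on either strand. This promoter held 24 CpG, against a median of 7, and 20.0% of all promoters held as many or more. In *Rarb* the capitals mark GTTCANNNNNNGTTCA, a pair of direct repeats in the form known as a retinoic acid response element, which 0.0761% of promoters hold. In *Sst* they mark TGACGTCA, the cAMP response element, which 1.79% hold. Of the 24 leading genes described below, 18 had a promoter in the table, 10 of these with GGGCGG, 9 with CCAAT, 1 with the repeat pair and 0 with TGACGTCA. Such matches describe the letters of the window and were not tested for use in these nuclei.

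The UMIs (unique molecular identifiers, counted RNA molecules) of each library were summed over the nuclei of cluster 45 and scaled to counts per 1e6 UMIs (CPM). CPM are not corrected for gene length, so levels are compared between groups of nuclei and not between genes. Control libraries 1 and 2 held 28 and 29 nuclei of the cluster with 382276 and 287410 UMIs. AgRP-Gq;POMC-Gi libraries 1 and 2 held 44 and 60 nuclei with 386269 and 568444 UMIs. The median nucleus had 8345 UMIs (range 1438 to 46526) and 3538 genes, near the 8706 UMIs of other neurons, and control library 1 was the deepest with a median of 11438 UMIs against 7725 to 8271 in the other 3. The 4 nuclei with over 3 times the median depth were kept. The authors had searched for doublets, and how fully these were removed is not stated. Of the 168 barcodes that occurred in more than 1 library, 0 fell in cluster 45 in both and 1 had its second occurrence elsewhere. Levels are given as mean ± SD over all 4 libraries where no single library is named. Cluster 45 was drawn up by the authors from expression itself, so its levels against other neurons are given as a description with no test.

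*Prdm16* set cluster 45 apart from other neurons. It reached 279.9 and 229.6 CPM in the control libraries and 165.7 and 168.9 CPM in the AgRP-Gq;POMC-Gi libraries, a mean of 211 ± 54.5 CPM against 9.07 ± 1.78 CPM in the other neurons (23.3 times). Every library lay at least 18.4 times above the other neurons of that library. A UMI of *Prdm16* was found in 110 of 161 nuclei (68.3%, exact 95% binomial interval 60.5 to 75.4, counting error only), in 5.94% of other neurons and in 0.387% of oligodendrocytes, which should lack it and had a median of 2460 UMIs. Cluster 45 ranked first of 134 neuronal clusters for *Prdm16*. The next were cluster 173 (Mecom/Oprk1) at 142 ± 39.8 CPM, cluster 123 (Reln/Pou4f1) at 127 ± 37.8 CPM, cluster 137 (Mecom/Col12a1) at 96.0 ± 49.5 CPM and cluster 28 (Mecom/Sema3a) at 91.0 ± 26.0 CPM. The SDs of neighbours in that order overlapped, those of cluster 45 and cluster 173 included. The median of the other clusters was 4.27 CPM, and 10 clusters held no *Prdm16* UMI. Outside neurons the gene was higher still in the choroid plexus, at 684 ± 387 CPM in 88.4% of nuclei, and it reached 82.5 ± 3.20 CPM in astrocytes.

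*Zfp804b*, the other name-giving gene, was high in cluster 45 but far from particular to it. Its levels were 1546 and 905 CPM in the control and 1735 and 1490 CPM in the AgRP-Gq;POMC-Gi libraries, a mean of 1419 ± 358 CPM against 630 CPM in other neurons (2.25 times). Like *Prdm16* it was detected in 110 nuclei (68.3%), against 1% of oligodendrocytes. Cluster 45 ranked 12th for *Zfp804b*, and 50 other neuronal clusters had more than 50% of its level, the highest being cluster 150 (Nr5a2/Zfp804b) at 3524 ± 1096 CPM. Since the label was drawn from these nuclei, the levels of both genes describe the cluster and do not test its name.

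**Figure D1:**
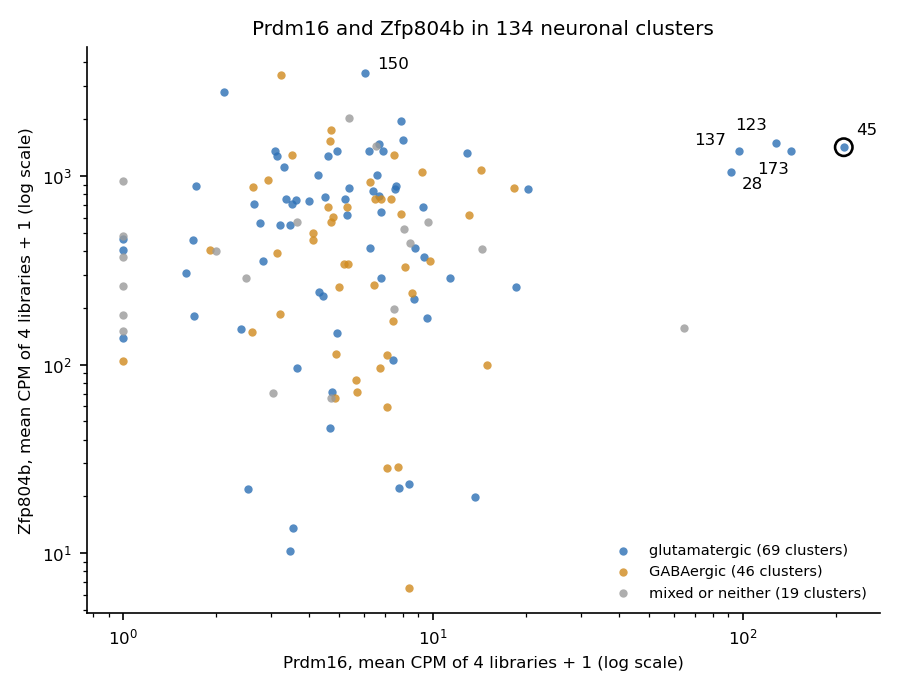
Mean *Prdm16* (x) against mean *Zfp804b* (y) in each of 134 neuronal clusters, as CPM + 1 on log scales, each point 1 cluster coloured by its transmitter class and cluster 45 ringed. Cluster 45 lies furthest to the right at 211 CPM of *Prdm16*, while on the *Zfp804b* axis it lies among many others and below cluster 150.

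Single nuclei were mixed for both genes. Both were detected in 72 nuclei, *Prdm16* alone in 38, *Zfp804b* alone in 38 and neither in 13. The median nucleus with *Prdm16* had 9757 UMIs and one without it 7092 UMIs, so depth differed along with detection, and its part was not tested. With every nucleus thinned to 2000 UMIs, which left 158 of the 161, the share expected over all possible draws of UMIs was 31.2% for *Prdm16* in cluster 45 and 1.58% in other neurons. *Prdm16* UMIs were spread out, the 5 richest nuclei holding 14.4% of them.

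*Gli3*, which encodes a transcription factor of the Hedgehog pathway, followed *Prdm16* among the genes that stood out. Its levels were 52.3 and 87.0 CPM in the control libraries and 181 and 86.2 CPM in the AgRP-Gq;POMC-Gi libraries, with a mean of 102 ± 55.4 CPM against 4.66 CPM in other neurons (21.8 times). It was found in 41 nuclei (25.5%), against 2.16% of other neurons and 0.161% of oligodendrocytes. *Gli3* is also an astrocyte and tanycyte gene, with 360 ± 7.67 CPM in astrocytes and 367 ± 20.7 CPM in the tanycyte-like cells. The astrocyte markers *Gfap*, *Aqp4*, *Gja1* and *Slc1a3* had a UMI in 5 of the 41 nuclei with *Gli3* (12.2%) and in 14 of the 120 without (11.7%). The astrocyte gene *Slc1a2* had one in 7 of the 41 (17.1%) and in 38 of the 120 (31.7%). Median depths were 10889 UMIs with *Gli3* and 7950 UMIs without. For neuronal clusters, cluster 143 (Kcnq5/Hs3st4) was close behind at 95.7 ± 40.0 CPM, well within the spread.

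Of 5530 genes found in at least 25% of the nuclei at 20 CPM or more, 725 (13.1%) were above and 608 (11%) below the other neurons of the same library in all 4 libraries. The ratio was 2 or more for 44 genes and 0.5 or less for 31, with a median of 1.02. The 24 genes with the largest ratio above the other neurons, called the leading genes here, were led by *Prdm16* and *Gli3* and ended with *Mme* at 2.46 times. Transcription regulators among them were *Rarb*, a retinoic acid receptor (291 ± 46.7 CPM, 3.46 times), *Lmo3* (119 ± 24.7 CPM, 3.39 times) and *Tox* (394 ± 134 CPM, 3.05 times). *Tox* reached 437 CPM in cluster 28, the neuronal cluster with the most similar levels. *Rarb* was found in 64.6% of nuclei against 0.618% of oligodendrocytes, but 7 clusters had more, and cluster 159 (Casr/Slc6a2) reached 2379 CPM.

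Secreted and membrane proteins were also among the leading genes. *Sema3e*, a guidance molecule that binds plexin D1, had 183, 334, 285 and 211 CPM in control 1 and 2 and AgRP-Gq;POMC-Gi 1 and 2, and a mean 3.85 times that of other neurons. Its receptor gene *Plxnd1* had no UMI in cluster 45. *Penk*, the precursor of the enkephalins, had 107, 115, 72.5 and 181 CPM in the same order (2.85 times) and was found in 44.1% of nuclei against 4.92% of oligodendrocytes. *Mme*, which encodes neprilysin, a peptidase that cleaves enkephalins, was found in 30.4% of nuclei against 0.297% of oligodendrocytes. The glycine receptor subunits *Glra2* (154 ± 32.4 CPM, 3.05 times) and *Glra3* (277 ± 23.0 CPM, 2.53 times), the cation channel *Trpc4* (91.2 ± 17.6 CPM, 2.59 times), the orphan receptor *Gpr149* (74.7 ± 8.76 CPM, 3.25 times) and the zinc transporter *Tmem163* (333 ± 37.4 CPM, 2.70 times) were further members. Against the other glutamatergic clusters alone all 24 genes stayed above, with ratios from 1.39 for *Slc17a6* and 1.455 for *Tmem163* to 18.1 for *Prdm16*.

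The leading genes hold 3 pairs that overlap in the genome on opposite strands. *Gm4128* lies over 17720 bases within *Sema3e* on chromosome 5, *Nell1os* over 58663 bases within *Nell1* on chromosome 7, and *Gm30382* and *Gm5149* share 41012 bases on chromosome 3. How strand was used in counting is not given in the sources used here, so reads of such partners may not be told apart and each pair may be 1 signal.

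**Figure D2:**
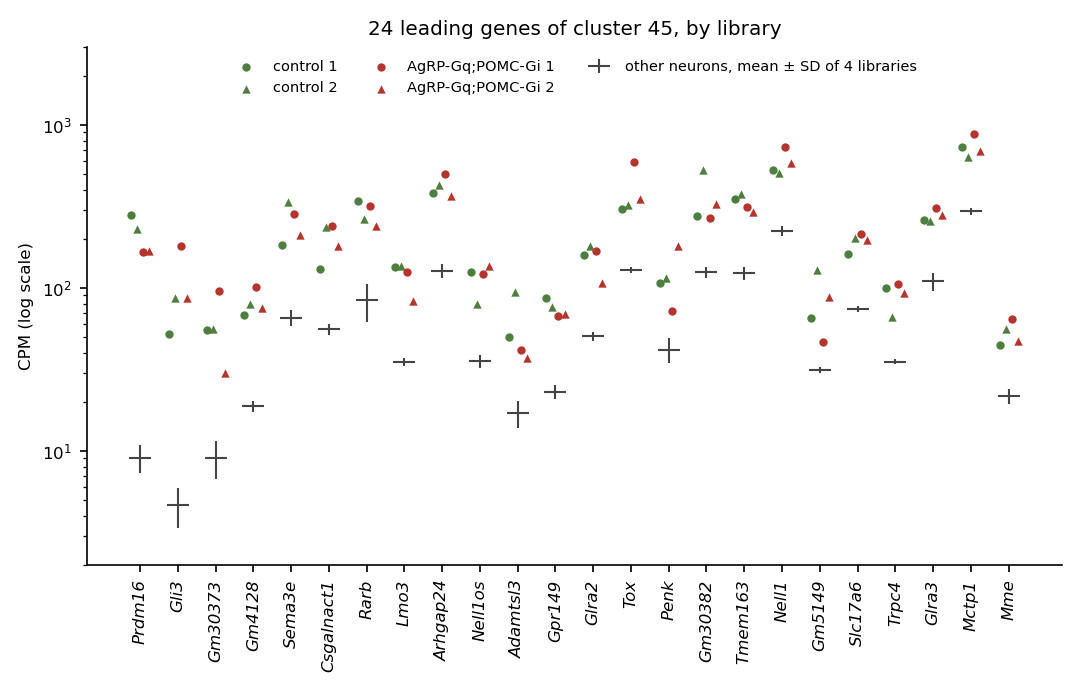
CPM (log scale) of the 24 leading genes in cluster 45, 1 point per library, with the mean ± SD of the other neurons over 4 libraries as grey bars. *Prdm16* and *Gli3* have the widest gap (23.3 and 21.8 times) and *Mme* the narrowest (2.46 times), and the libraries of both groups mix for most genes.

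The transmitter genes showed a glutamatergic profile. *Slc17a6* had 162, 202, 215 and 197 CPM in control 1 and 2 and AgRP-Gq;POMC-Gi 1 and 2, a mean of 194 ± 22.5 CPM against 74.4 CPM in other neurons. It was found in 76.4% of nuclei (69.1 to 82.7) and in 3.49% of oligodendrocytes. Of the other vesicular glutamate transporters *Slc17a7* had 1.3 CPM and *Slc17a8* no UMI, which allows up to 1.85 CPM. The GABA and glycine genes were low. *Slc32a1* was found in 4.97% of nuclei against 2.82% of oligodendrocytes, *Gad1* in 2.48% against 1.86%, *Gad2* in 6.83% against 3.03% and *Slc6a5* in 9.32% against 1.39%, with ratios to other neurons of 0.183, 0.0638, 0.0788 and 0.111. *Th*, *Dbh*, *Pnmt*, *Slc6a2*, *Slc6a3*, *Slc6a4*, *Fev* and *Hdc* of the 11 monoamine genes had no UMI. *Chat*, which makes acetylcholine, had 16.1 ± 10.2 CPM, but from 13 nuclei, 5 of which held 69.2% of its UMIs.

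Marker genes of other cell types stood at the level they have in neurons generally. The 5 oligodendrocyte genes summed to 133 to 275 CPM per library against 202 CPM in other neurons, and the 5 astrocyte genes to 41.4 to 101 CPM against 63.2 CPM, with *Gfap* at 0. *Csf1r*, *Tmem119*, *Flt1*, *Abcc9*, *Ccdc153* and *Tmem212* were at 0 as well. The choroid plexus genes *Ttr* and *Kcnj13* were the exception to the even levels, with 20.9 and 1214 CPM in the control and 41.4 and 646 CPM in the AgRP-Gq;POMC-Gi libraries. *Ttr* in oligodendrocytes varied in the same order (5.97, 3333, 24.3 and 2085 CPM). Because *Prdm16* is also a choroid plexus gene, the nuclei were split by it. *Ttr* was found in 58.2% of those with *Prdm16*, at 372 CPM, and in 58.8% of those without, at 618 CPM. Both values pool libraries that differ widely in *Ttr*, so they do not show the relation within a library. The nuclei with *Prdm16* were the deeper ones, as given above.

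Of the 15 PR domain genes in the list 8 reached 10 CPM in 10% of nuclei, 4 of these were above the other neurons in all 4 libraries and 0 below, against 10.7% above and 11.2% below of 9542 genes with such levels. Besides *Prdm16* these were *Mecom* (112 ± 58.6 CPM, 3.32 times), *Prdm4* (13.3 ± 2.94 CPM, 1.66 times) and *Prdm2* (106 ± 10.8 CPM, 1.20 times). *Prdm1*, *Prdm6*, *Prdm12*, *Prdm13* and *Prdm14* had no UMI. *Mecom* came from a minority, being found in 20 of 161 nuclei (12.4%, oligodendrocytes 0.672%), of which 5 held 59.5% of its UMIs.

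By their mean levels *Prdm16* and *Mecom* were both high in a few glutamatergic clusters. Of 134 clusters 5 had 80 CPM or more of *Prdm16*, 7 had 100 CPM or more of *Mecom*, and all 5 of the former were among the 7. In cluster 45 *Mecom* had 73.2, 83.5, 90.6 and 199 CPM in control 1 and 2 and AgRP-Gq;POMC-Gi 1 and 2, so that its mean passed 100 CPM through the last library alone. These values came from 3, 1, 7 and 9 nuclei, so that of control library 2 rests on a single nucleus. Within cluster 45 both genes were found in 13 nuclei, where independent detection would give 13.7. All 5 also had over 1000 CPM of *Zfp804b*, as did 29 clusters in all. These limits were set after the values were seen. Within the set clusters 45 and 123 had *Prdm16* at 211 and 127 CPM and *Mecom* at 112 and 109 CPM. Clusters 173, 137 and 28 had *Prdm16* at 142, 96.0 and 91.0 CPM and *Mecom* at 677, 591 and 434 CPM. Clusters 66 and 30 had *Mecom* (792 and 122 CPM) with little *Prdm16* (5.82 and 5.74 CPM), and cluster 66 is GABAergic.

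**Figure D3:**
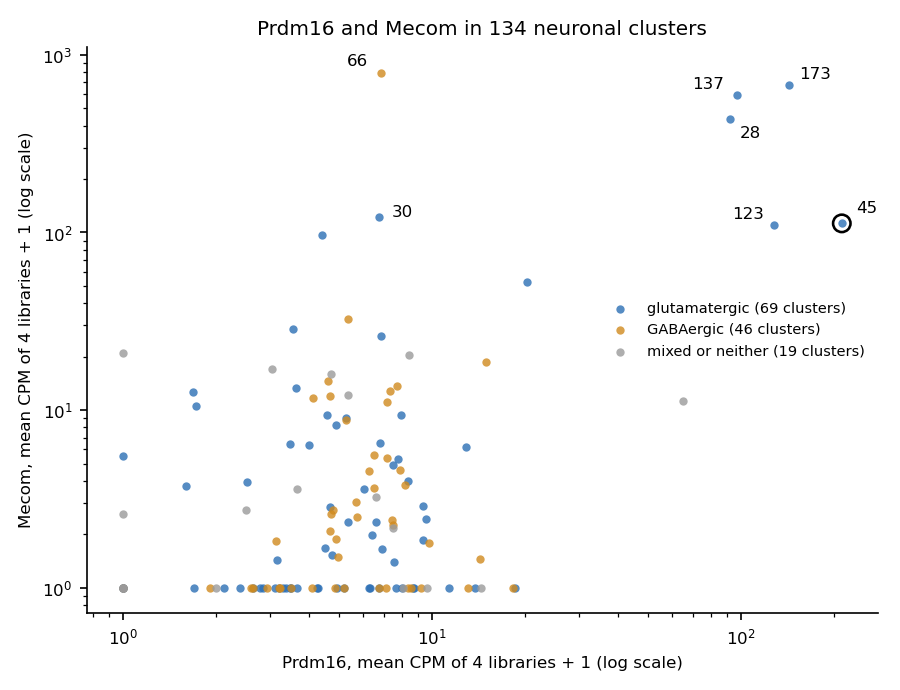
Mean *Prdm16* (x) against mean *Mecom* (y) in 134 neuronal clusters, as CPM + 1 on log scales, coloured by transmitter class with cluster 45 ringed. The 5 clusters at the right (45, 123, 173, 137 and 28) all lie high on the *Mecom* axis, whereas clusters 66 and 30 have *Mecom* and little *Prdm16*.

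The known partners of PRDM16 were mostly present at ordinary levels. Of 13 genes 11 reached 10 CPM in 10% of nuclei, with a median ratio of 0.95 against 1.01 over the 9542 genes. In all 4 libraries 1 of the 11 was above and 3 were below the other neurons, against 10.7% and 11.2% of the 9542 genes. *Ctbp2*, a corepressor, was above the other neurons in all libraries (58.8 ± 3.17 CPM, 1.17 times). *Ppargc1a*, the coactivator of mitochondrial genes that PRDM16 binds in fat cells, was below in all of them (65.4 ± 8.17 CPM, 0.597 times), as were *Pparg* (0.645 times) and *Ski* (0.531 times).

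Of 100 transcription factors of hindbrain lineages 34 reached the same limits, 8 of them above and 12 below the other neurons in all 4 libraries, against 10.7% and 11.2% of the 9542 genes, with a median ratio of 0.999. *Meis2* (700 ± 120 CPM, 2.01 times), *Meis1* (371 ± 62.4 CPM, 1.84 times) and *Pbx3* (495 ± 95.4 CPM, 1.58 times), which encode homeodomain partners of Hox proteins, were on the upper side. So were *Ebf2* (132 ± 52.0 CPM, 1.91 times), *Bcl11a* (1.79 times) and *Irx5* (20.0 ± 1.63 CPM against 3.06 CPM). *Tshz1* (0.223 times), *Nfib* (0.315 times) and *Tshz2* (0.401 times) were lowest against other neurons. *Lbx1*, *Atoh1*, *Gata3* and *Tal1* were among 22 with no UMI.

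The *Hox* genes mark position along the body axis. *Hoxc4* (65.6 ± 12.5 CPM, 43.5% of nuclei against 1.09% of oligodendrocytes), *Hoxb3* (52.3 ± 6.91 CPM), *Hoxb5* (32.8 ± 19.2 CPM), *Hoxb4* (31.0 ± 7.16 CPM), *Hoxd3* (27.5 ± 9.82 CPM) and *Hoxa3* (22.7 ± 9.33 CPM) were among those of the 39 listed that had a UMI. No UMI was found for 21 of them, among them *Hoxa7*, *Hoxa9*, *Hoxb9*, *Hoxc8* and *Hoxd8*. Of the list 10 reached 10 CPM in 10% of nuclei, of which 4 were above the other neurons in all libraries and 0 below, against 10.7% and 11.2% of the 9542 genes, with *Hoxc4* at 1.59 times.

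Among 50 neuropeptide and secreted protein genes 10 reached the limits and 16 had no UMI. *Penk* and *Sst* were the 2 above other neurons in all libraries and 3 genes were below, against 10.7% and 11.2% of the 9542 genes. *Sst*, the somatostatin precursor, had 57.6, 80.03, 31.1 and 120 CPM in control 1 and 2 and AgRP-Gq;POMC-Gi 1 and 2, with a mean of 72.1 ± 37.5 CPM against 29.6 CPM, and was found in 33.5% of nuclei against 5.77% of oligodendrocytes. Its libraries differed more among themselves than the groups did. Both *Penk* and *Sst* were found in 27 nuclei, *Penk* alone in 44, *Sst* alone in 27 and neither in 63. *Nxph1* was far below other neurons (161 ± 45.4 CPM, 0.195 times), and the other glutamatergic clusters alone had 577 CPM. *Agrp* was slightly below other neurons in all libraries, at 78.4 ± 9.19 against 88.1 CPM.

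Receptors for hormones and peptides of feeding were present for several ligands. Of 63 genes 15 reached the limits, 5 of them above and 1 below the other neurons in all libraries, against 10.7% and 11.2% of the 9542 genes, with a median ratio of 1.16. *Lepr*, the leptin receptor, had 49.7, 34.8, 36.2 and 40.5 CPM in control 1 and 2 and AgRP-Gq;POMC-Gi 1 and 2, a mean of 40.3 ± 6.71 CPM against 17.4 CPM (2.31 times), in 26.1% of nuclei against 0.279% of oligodendrocytes. *Oprk1* (29.6 ± 11.3 CPM, 2.45 times) and *Oprm1* (163 ± 30.9 CPM, 1.55 times) encode receptors of opioid peptides, of which *Penk* is a precursor. *Tacr1*, a tachykinin receptor, was also above them (1.34 times). Nuclei with *Lepr* had *Penk* in 66.7% and those without in 36.1%, but their median depths were 11786 and 8044 UMIs. *Mc3r*, *Ghsr*, *Gipr*, *Casr* and *Prlhr* were among 14 with no UMI.

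Of 47 monoamine and acetylcholine receptor genes 11 reached the limits, 3 of them above and 1 below in all libraries, against 10.7% and 11.2% of the 9542 genes, and all 4 encode serotonin receptors. *Htr2c* had 1180 and 1482 CPM in the control and 1320 and 1414 CPM in the AgRP-Gq;POMC-Gi libraries, 1.86 times the 727 CPM of other neurons, and was found in 91.9% of nuclei against 2.65% of oligodendrocytes. *Htr1f* (229 ± 80.9 CPM, 1.99 times) and *Htr4* (94.8 ± 26.1 CPM, 1.55 times) were the other 2 above in all libraries, and *Htr7* the 1 below (0.388 times). The median ratio of the 11 genes at the limits was 1.04. *Htr3a*, *Htr1a*, *Drd1* and *Chrnb4* were among 17 with no UMI.

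Ionotropic and metabotropic receptors and channels lay on both sides of other neurons. Of 26 glutamate receptor genes 22 reached the limits, and 5 of these were above and 4 below the other neurons in all libraries, among them *Grm8* (929 ± 155 CPM, 1.92 times) above and *Grin2a* (208 ± 37.8 CPM, 0.393 times) and *Grik3* (0.292 times) below. Their median ratio was 1.03. Of 23 GABA and glycine receptor genes, 16 at the limits, 6 were above and 3 below. Potassium channels had 9 above and 5 below of 32, led by *Kcnh7* (1352 ± 313 CPM, 1.92 times), *Kcnt2* (1.74 times) and *Kcnb2* (1180 ± 130 CPM, 1.71 times). Sodium, calcium, HCN and TRP channels had 2 above and 13 below of 28 and a median ratio of 0.924, against 10.7% above, 11.2% below and a median of 1.01 over the 9542 genes. In that list *Cacna2d3*, an auxiliary calcium channel subunit, had 128, 118, 80.3 and 58.1 CPM in the 4 libraries against 532 ± 15.4 CPM in other neurons (0.181 times). The other glutamatergic clusters alone had 220 CPM of it.

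Of 49 adhesion and guidance genes 44 reached the limits, 16 of them above and 6 below, with a median ratio of 1.17, against 10.7% above and 11.2% below of the 9542 genes. *Pcdh15* (2467 ± 71.1 CPM, 2.07 times), *Ntng1* (976 ± 68.4 CPM, 2.27 times), *Cdh12* (912 ± 99.6 CPM, 1.86 times), *Unc5d* (1201 ± 172 CPM, 1.88 times) and *Cdh9* (210 ± 76.6 CPM, 2.35 times) were above in every library. *Pcdh9* (0.550 times), *Unc5c* (0.489 times) and *Slit3* (0.450 times) were below. *Nrxn3*, a presynaptic adhesion gene outside the lists, had 1629 ± 345 CPM against 4383 CPM in other neurons (0.372 times). The other glutamatergic clusters alone had 1878 CPM, near the level of cluster 45. Of the calcium-binding proteins *Calb1* was above (38.2 ± 16.1 CPM, 1.55 times) and *Pvalb* below (12.7 ± 6.95 CPM, 0.597 times).

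The neuronal clusters with the most similar levels over 13986 genes were cluster 28 (Mecom/Sema3a, 227 nuclei, Spearman's rho 0.968), cluster 90 (Pou4f1/Klhl1, 108 nuclei, 0.960) and cluster 30 (Zfp804b/Npas1, 219 nuclei, 0.960), with a median of 0.911 over 133 clusters. All 3 are glutamatergic, although the median rho over all GABAergic clusters (0.926) was above that over the other glutamatergic ones (0.908). These values are descriptive, since the clusters share libraries and differ in size and depth. Against cluster 28, 251 of 6455 genes (3.89%) were higher and 271 (4.2%) lower in cluster 45 with no overlap of libraries. Among the higher were *Ebf2*, with 132 ± 52.0 CPM in cluster 45 and 4.14 ± 3.88 CPM in cluster 28, *Foxp2* (157 ± 65.9 against 14.3 ± 5.02 CPM) and *Gli3* (102 against 14.3 CPM). *Mecom* (112 against 434 ± 124 CPM), *Cpne4* (25.0 against 213 CPM) and *Sema3d* (20.5 against 107 CPM) were lower in cluster 45. Against cluster 90, 220 of 6453 genes (3.41%) were higher and 271 (4.2%) lower, with *Pou4f1* at 8.25 against 47.8 CPM and *Zfpm2* at 32.5 against 291 CPM. Against cluster 30, 324 of 7049 (4.6%) were higher and 416 (5.9%) lower, among them *Zeb2* at 129 ± 35.7 against 4.02 CPM, *Penk* at 119 against 13.0 CPM, *Npas1* at 9.83 against 84.6 CPM and *Onecut1* at 2.40 against 41.8 CPM. *Prdm16* itself was at 91.0, 5.82 and 5.74 CPM in clusters 28, 90 and 30.

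By rank over all neuronal clusters no gene followed *Prdm16* closely. Of the 134 clusters 128 had under 20 CPM of *Prdm16*, so most ranks lie among low values. The measure therefore cannot show which genes share its few high clusters. Of 7453 genes the highest Spearman's rho over 134 clusters were 0.384 for *Flywch1*, 0.375 for *Gm33680* and 0.370 for *Glg1*, which are weak and given as a description.

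Cluster 45 made up 1.13% (exact 95% interval 0.755 to 1.63) and 1.06% (0.711 to 1.52) of neurons in the control libraries and 1.19% (0.866 to 1.59) and 1.65% (1.26 to 2.12) in the AgRP-Gq;POMC-Gi libraries. Both AgRP-Gq;POMC-Gi libraries lay above both controls, 1.42% ± 0.325 against 1.10% ± 0.0521 (n = 2 libraries each), an order shared by 24.6% of the 134 neuronal clusters. The exact permutation test gave a two-sided p of 0.333, the smallest that 2 against 2 libraries allow. Among all nuclei the shares were 0.288, 0.289, 0.453 and 0.602%, where neurons as a whole made up 25.4, 27.2, 38.0 and 36.5% of the nuclei.

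Between the groups few genes of cluster 45 passed the test. The test took 11735 genes, each seen in 5% of its nuclei or more, and edgeR's quasi-likelihood test on UMIs summed per library called 3 (0.0256%) at a Benjamini-Hochberg adjusted p under 0.05, 2 higher and 1 lower in the AgRP-Gq;POMC-Gi group. At an unadjusted p under 0.05 there were 527. *Fbxl7*, which encodes an F-box protein of a ubiquitin ligase, rose. It had 16 and 9 UMIs (41.9 and 31.3 CPM) in the control libraries and 45 and 64 UMIs (116 and 113 CPM) in the AgRP-Gq;POMC-Gi libraries, a log2 change of 1.62 (SE 0.32, adjusted p = 0.0309 by edgeR). The groups did not overlap, and other neurons had 84.5, 117, 132 and 93.1 CPM, so the control libraries of cluster 45 were the low values. It was found in 3 of 28, 5 of 29, 8 of 44 and 12 of 60 nuclei, and a single nucleus held 9 of the 16 UMIs of control library 1. The *Fbxl7* call was lost without control library 1, control library 2 or AgRP-Gq;POMC-Gi library 2, with log2 changes of 1.90, 1.43 and 1.71. *Pde3a*, a phosphodiesterase that degrades cAMP, fell. It had 39 and 12 UMIs (102 and 41.8 CPM) against 4 and 11 UMIs (10.4 and 19.4 CPM), a log2 change of -2.23 (SE 0.45, adjusted p = 0.0309 by edgeR). In control library 1 a single nucleus held 23 of its 39 UMIs (59.0%), and without that library the change was -1.37 with an adjusted p of 0.861.

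*Kdm5d*, a histone demethylase gene on the Y chromosome (Y:897788-956786), was the third. It had 1, 3, 13 and 42 UMIs (2.62, 10.4, 33.7 and 73.9 CPM) in control 1 and 2 and AgRP-Gq;POMC-Gi 1 and 2, a log2 change of 3.17 (SE 0.60, adjusted p = 0.0309 by edgeR). Other sex-linked genes also differed between libraries. *Xist*, the RNA that coats the silenced X of female cells, had 515, 261, 494 and 7.04 CPM in cluster 45, with a UMI in 24 of 28, 11 of 29, 23 of 44 and 1 of 60 nuclei. The Y-linked *Eif2s3y* had 2.62, 73.1, 46.6 and 102 CPM and *Uty* 31.4, 118, 69.9 and 185 CPM, and neither of them separated the groups. The Y-linked *Ddx3y* did, with 2, 3, 5 and 17 UMIs (5.23, 10.4, 12.9 and 29.9 CPM), an order shared by 16% of all genes tested. In other neurons *Ddx3y* had 13.5, 18.3, 13.4 and 39.5 CPM and *Kdm5d* 18.2, 27.5, 16.6 and 56.2 CPM. Neither separated the groups there. The part of sex in the *Kdm5d* value was not tested. The *Kdm5d* call was lost without control library 1 or AgRP-Gq;POMC-Gi library 2, with log2 changes of 2.44 and 2.49. Its change was 4.28 without control library 2 and 3.53 without AgRP-Gq;POMC-Gi library 1.

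None of the 3 calls stood under every setting. Without control library 1, 5 genes were called and 0 of them were among the 3, and with DESeq2, library size in place of TMM factors or edgeR's own expression filter 0 genes were called, with 50, 490 and 294 at an unadjusted p under 0.05. The range of the adjusted p over 9 alternatives was 4.74e-05 to 1.00 for *Kdm5d*, 0.00292 to 1.00 for *Fbxl7* and 8.78e-06 to 1.00 for *Pde3a*, with the same direction in each.

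Whether a group difference in cluster 45 differed from that in the other neurons was tested with an interaction term in a model with library as a block. The other neurons pool many clusters whose shares varied between libraries. Of all 134 neuronal clusters 33 had a higher and 18 a lower share in both AgRP-Gq;POMC-Gi libraries than in both controls. The part of this make-up in the interaction was not tested. Of 11735 genes 1 passed (0.00852%), with 475 at an unadjusted p under 0.05. It was *Synpr*, which encodes synaptoporin, a membrane protein of synaptic vesicles. In cluster 45 it had 79 and 58 UMIs (207 and 202 CPM) in the control libraries and 31 and 64 UMIs (80.3 and 113 CPM) in the AgRP-Gq;POMC-Gi libraries. Other neurons had 86.3, 78.8, 91.2 and 114 CPM, so that cluster 45 stood above them in the control libraries and near them in the others. The difference of the log2 changes was -1.43 (SE 0.22, adjusted p = 0.0151 by edgeR). That difference was of like size but did not pass with edgeR's own expression filter (-1.42, adjusted p = 0.112) or with DESeq2 (-1.44, adjusted p = 0.185). The model gave each gene the same dispersion in the small sums of cluster 45 and the far larger sums of other neurons. The common biological coefficient of variation, the fitted spread between libraries, was 0.0863 over these 8 sums and 0.143 in cluster 45 alone. The interaction p may therefore understate the spread of cluster 45. *Synpr* was detected in 18 of 28 and 14 of 29 control nuclei and in 9 of 44 and 22 of 60 AgRP-Gq;POMC-Gi nuclei, and at 2000 UMIs the expected shares were 28.6 and 30.6% against 10.7 and 18.5%. The group difference within cluster 45 alone did not pass the threshold (log2 -1.05, SE 0.24, adjusted p = 0.128 by edgeR). *Pde3a* had an interaction of -2.44 (SE 0.44, adjusted p = 0.0512), and the smallest p for a higher value belonged to *Tafa1* (1.05, SE 0.22, adjusted p = 0.229), *Fbxl7* (1.42, SE 0.33, adjusted p = 0.460) and *Kdm5d* (2.42, SE 0.63, adjusted p = 0.738), all by edgeR. Without AgRP-Gq;POMC-Gi library 1 *Tafa1* (1.34, adjusted p = 0.000228) and *Fbxl7* (1.64, adjusted p = 0.0140) passed by edgeR.

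**Figure D4:**
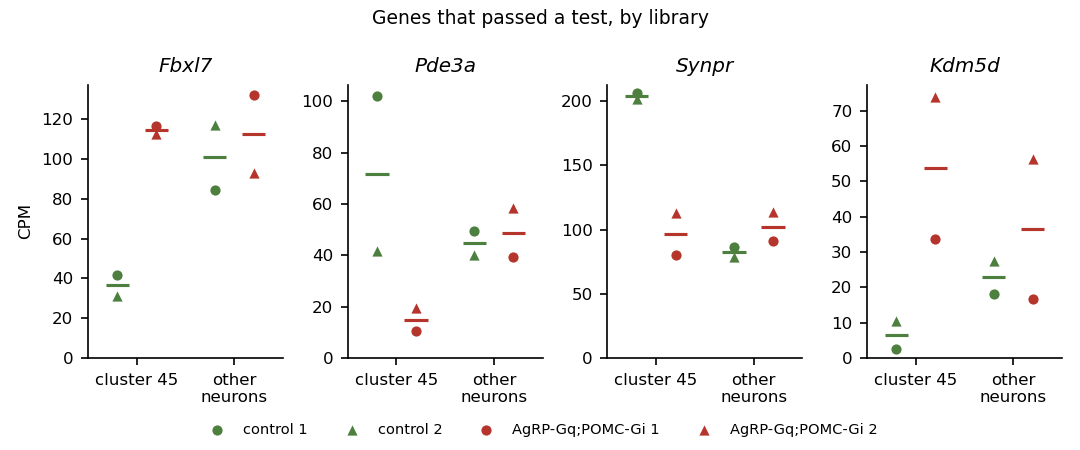
CPM of *Fbxl7*, *Pde3a*, *Synpr* and *Kdm5d* in cluster 45 and in the other neurons, 1 point per library and a line at each group's mean (n = 2 libraries). For *Synpr* the control libraries of cluster 45 lie at 207 and 202 CPM, above all other points of the panel, and for *Fbxl7* they lie lowest at 41.9 and 31.3 CPM.

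The genes that define the cluster did not pass the test between groups. *Prdm16* was lower in both AgRP-Gq;POMC-Gi libraries than in both controls, with a log2 value of -0.60 (SE 0.23, adjusted p = 0.997 by edgeR). It had a UMI in 24 of 28 and 25 of 29 nuclei against 26 of 44 and 35 of 60, and at 2000 UMIs an expected share of 42.9 and 37.0% against 26.2 and 26.3%. The log2 values of *Zfp804b* and *Gli3* were 0.41 (SE 0.23) and 0.95 (SE 0.32), with adjusted p of 0.998 and 0.842 by edgeR. That of *Gli3* moved with single libraries, to 1.48 without AgRP-Gq;POMC-Gi library 2 (adjusted p = 0.0214 by edgeR), 0.32 without AgRP-Gq;POMC-Gi library 1 and 0.62 without control library 1. That of *Zfp804b* was 0.88 without control library 1 and 0.06 without control library 2. Of the 24 leading genes 0 were called, 3 lay above both controls in both AgRP-Gq;POMC-Gi libraries and 5 below, against 16% and 16.9% of all genes tested.

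The 10 immediate early genes that the study used as signs of recent neuronal activity summed to 173 CPM in cluster 45 against 165 CPM in other neurons. Of these 7 were found in at least 5% of nuclei and entered the main test. There 0 were called, where 0.0256% of all genes were, with a median log2 value of 0.24 against 0.01 for all genes. *Homer1*, a scaffold of the postsynaptic density, had 54.9, 48.7, 51.8 and 68.6 CPM in control 1 and 2 and AgRP-Gq;POMC-Gi 1 and 2 (log2 0.24, SE 0.34), and the groups overlapped. *Jun* had 1, 3, 5 and 10 UMIs (log2 1.34, SE 0.81) and *Btg1* 9, 5, 10 and 16 UMIs (log2 0.39, SE 0.51), both higher in both AgRP-Gq;POMC-Gi libraries, as were 16% of all genes tested, and neither past the threshold. *Junb* (4, 8, 3 and 9 UMIs), *Nr4a1* (3, 5, 1 and 11 UMIs) and *Gem* (0, 4, 2 and 6 UMIs) overlapped between groups. *1700016P03Rik*, the host transcript of miR-132 and miR-212, had 14, 11, 2 and 31 UMIs, with the highest and the lowest library in the same group. *Fos* had 2, 1, 3 and 3 UMIs in 6 nuclei (5.23, 3.48, 7.77 and 5.28 CPM), also higher in both AgRP-Gq;POMC-Gi libraries. *Fosl2* had 0, 1, 0 and 3 UMIs and *Nr4a3* 5, 0, 1 and 5 UMIs. These 3 genes fell under the limit of 5% of nuclei and were left out of the main test. Their values in the setting without a gene filter are not reported here, so nothing is said of a change in them. Among the tested genes SEs were wide, at 0.97 for *Gem*, 0.81 for *Jun*, 0.73 for *Nr4a1* and 0.66 for *Junb*. The lack of calls therefore does not show that these genes were unchanged.

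**Figure D5:**
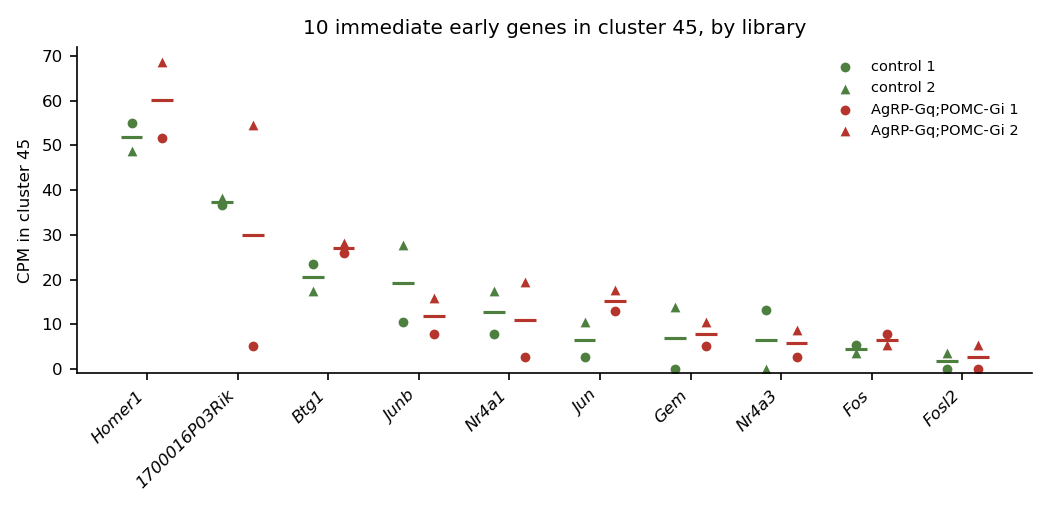
CPM of the 10 immediate early genes in cluster 45, 1 point per library with a line at each group's mean (n = 2 libraries). The groups overlap for most genes, and *1700016P03Rik* ranges from 5.18 to 54.5 CPM within the AgRP-Gq;POMC-Gi libraries.

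No gene of the lists was called between groups. In the neuropeptide, feeding receptor, transcription factor, *Hox*, PR domain, receptor, channel and adhesion lists 0 of 13, 21, 46, 10, 9, 13 and 23, 16, 38, 30 and 46 tested genes passed in either direction, where 0.0256% of all genes did. Medians of those lists with 16 or more tested genes lay between -0.09 and 0.09 on the log2 scale, against 0.01 over all genes. Members went both ways, from -1.07 to 1.68 among the transcription factors. An unadjusted p under 0.05 by edgeR was found for 10 of 46 transcription factors, 3 of 9 PR domain genes and 4 of 13 monoamine and acetylcholine receptors. The other lists named had 0 to 2 such genes each, and all genes tested 527 of 11735. The 13 monoamine and acetylcholine receptors had a median of 0.33, 6 of them lying above both controls and 0 below, against 16% and 16.9% of all genes tested. *Lepr* had a log2 value of -0.15 (SE 0.39), *Penk* of 0.26 (SE 0.28) and *Sst* of 0.26 (SE 0.35), each with an adjusted p of 0.998 by edgeR.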

How the data were processed

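Nuclei of 4 hindbrain libraries (2 per group) were analysed. The authors mapped reads to GRCm38 with Cell Ranger 7.0.0 and deposited UMI counts per gene and barcode, which sum to 1624399 in cluster 45. Their table of nuclei gives counts of UMIs and genes, the percent of mitochondrial RNA per nucleus as deposited, the nuclei kept after Seurat 4.3.0, and clusters and cell types, which were taken as they are. That table also holds an IEG score and its category per cluster, comparisons of the authors' own that were not used. No count table was rescaled before summing, and intervals cover counting error only.

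UMIs were summed per library in Python 3.11.15 (numpy 2.4.6, pandas 2.3.3, scipy 1.17.1) and plotted with matplotlib 3.10.9. Groups were compared with edgeR 4.0.16 (quasi-likelihood, TMM factors) in R 4.3.3, without a replicate block. Clusters were called glutamatergic or GABAergic where *Slc17a6* or *Slc32a1* exceeded the other 4 times, and not called where both had under 20 UMIs. Gene positions are from GENCODE M21 on GRCm38 (32235 of 32285 genes matched by identifier) and promoters from RefSeq. The members and gene lists were chosen with earlier results of these data known. Genes named are the label genes, the 24 with the largest ratio to other neurons, up to 10 calls per direction of each test or, where none passed, the 3 smallest p, the most abundant list members, those of a list on the same side in all 4 libraries (chosen after their values were seen), all 10 immediate early genes and the 3 most like *Prdm16*. Some list members are not reported here. Shares at 2000 UMIs are hypergeometric expectations, and single random draws scatter around them (28.5% for *Prdm16* in 1 draw). Scripts were tested on simulated data. Alternatives were library size only, DESeq2 1.42.0, no gene filter, edgeR's filterByExpr, a replicate block, other comparison clusters and each library left out.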

Additional observations from a re-analysis of the deposited data

Results flagged for a closer look

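*Synpr* was the one gene whose difference between groups in cluster 45 departed from that in the other neurons, by -1.43 on the log2 scale (edgeR interaction test, adjusted p = 0.0151). It had 207 and 202 CPM in the control and 80.3 and 113 CPM in the AgRP-Gq;POMC-Gi libraries of cluster 45, against 86.3, 78.8, 91.2 and 114 CPM in the other neurons. The adjusted p ranged from 0.00363 to 0.185 over 8 alternatives, and it passed under 6 of them. No explanation was tested.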

How the results depend on the processing

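The counts of called genes moved with nearly every setting, and their causes were not tested. Between groups the 3 calls became 0 with library size only, 0 with filterByExpr, 0 with DESeq2 and 0 with the replicate block, whose numbers did not pair the libraries over all genes (correlation of deviations 0.013, although *Ttr* and *Xist* ordered both pairs of libraries by number), and 11 with no filter on genes, where all 3 remained. Unadjusted p under 0.05 numbered 490, 294, 50 and 441 in the settings without calls. With 1 library left out, which leaves an arm with 1 library assumed to vary like the other group, 4 to 17 genes were called: 5 without control library 1 (0 of the 3 among them), 14 without control library 2 (2), 17 without AgRP-Gq;POMC-Gi library 1 (2) and 4 without library 2 (1). The 1 interaction call became 0 with filterByExpr (271 at an unadjusted p under 0.05), 0 with DESeq2 (129) and 3 against the other glutamatergic neurons. Leaving out 1 library, chosen as an alternative after seeing the data, gave 2 to 17 (2 and 12 without control libraries 1 and 2, 17 and 3 without AgRP-Gq;POMC-Gi libraries 1 and 2). *Synpr* passed in all 4 of those fits, with a log2 value of -1.36 to -1.54. The called genes kept their direction in every setting. Genes that did not pass could change sign. The interaction of *Gli3* went from 0.44 to -0.09 without control library 1, and that of *Zfp804b* from 0.36 to -0.07 without control library 2. Those of *Junb*, *Nr4a1*, *Gem* and *Btg1* also changed sign with 1 library left out. All 24 leading genes stayed above the comparison in every setting, with *Prdm16* at 17.8 to 24.9 times. They had been chosen as above the other neurons in all 4 libraries, so leaving out a library could not change this. The 3 nearest clusters were the same in each setting. The difference in share, 0.323 percentage points, was 0.239 over all nuclei and 0.0937 to 0.553 with 1 library left out. With 28 to 60 nuclei per library, small changes of rare genes were not detectable.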
